A study of Mus musculus with 16 samples.

Results

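The 66 genes described here are ligands and receptors of axon guidance: semaphorins, plexins and neuropilins, ephrins and Eph receptors, Slits and Robos, and netrins, netrin-Gs and their receptors. They were taken by gene symbol, with the condition that at least 10 counts were present in 4 or more of 16 RNA-seq libraries. Of 27179 genes in the files, 73 carried such a symbol and 66 met the condition. These were 35 of 37 ligands and 31 of 36 symbols of receptor families. Slit3, with 10 counts in 5 libraries, and Sema3e, with 7 libraries, lay just inside. For Slit3 these were the intact differentiating libraries (148, 42, 46 and 40 counts) and null differentiating replicate 4 (10 counts). For Sema3e they were the intact differentiating libraries and null differentiating replicates 2, 3 and 4. Both met the condition only with the intact differentiating libraries, so their differences from that group were in part set by the choice of genes. Epha6 and Epha8, with 3 libraries each, lay just outside, and in both of them those were intact differentiating libraries (186, 25 and 34 counts for Epha6). Sema3g reached 10 counts in 2 libraries, and Epha1, Robo4 and Ntn5 did so in none. Plxna4os1, an RNA antisense to Plxna4 and not a receptor, matched the plexin pattern, is counted among the 36 symbols of receptor families and had 0 counts. All 66 genes passed the filter on low counts and stood among the 15177 genes tested.

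The libraries came from neural stem and progenitor cells of the mouse, taken at E14.5 from foetal cortex and ganglionic eminence and cultured as neurospheres. Null cells were Kat7lox/loxNesCreT/+ and intact cells were Kat7+/+NesCreT/+, so both genotypes carried the NesCre transgene, in which Nestin regulatory sequences drive the Cre recombinase, and they differed in the floxed Kat7 alleles. Kat7, called Hbo1 in the labels, encodes a histone lysine acetyltransferase. Proliferating cells were kept in neural stem cell medium through 3 passages and 3 days. Differentiating cells were moved after passage 3 to a laminin substrate and a cortical neuron medium for 3 days. Each combination of genotype and condition had 4 libraries, from 4 foetuses according to the series text, and p-values therefore measure the spread between such isolates within this culture system.

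Growing axons steer by reading secreted and membrane-bound cues. Netrins attract through Dcc and repel through Unc5 receptors, Slits repel through Robo receptors, secreted semaphorins act through neuropilin and plexin complexes, membrane semaphorins act mostly on plexins directly, and ephrins signal with Eph receptors at cell contacts, in both directions. In the developing forebrain the same molecules also act on migrating neurons, on progenitors and on oligodendrocyte precursors.

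Total counts per library ran from 16784286 to 47890535. Kat7 itself averaged 139 CPM (counts scaled to a fixed library total after TMM normalization) in intact and 0.0899 CPM in null proliferating cells, and 103 and 0.00766 CPM in differentiating cells. Nes and Sox2, markers of neural stem cells, averaged 1220 and 522 CPM in intact proliferating cells. The intact libraries numbered 1 stood apart. In proliferating cells, replicate 1 lay at -7.6 on the first principal component of all genes, against -72 to -65.8 for the other intact libraries. In differentiating cells, replicate 1 was the highest of its group for 50 of the 66 guidance genes, against 40.4% of all genes tested, and replicate 4 was the lowest for 40, against 29.6% of all genes.

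In null proliferating cells the receptors Dcc, Unc5c, Unc5d, Robo1, Robo2, Epha3 and Epha5 and the ligands Sema3c, Sema3d and Efnb3 fell by 2.24 to 5.64 on the log2 scale. After 3 days of differentiation these 10 genes were again lower in null cells, by 1.90 to 6.80. Slit2, Efnb2, Epha7 and Plxnb3 were lower there and had no call in proliferating cells. Sema4d and Plxna4 were called lower in both conditions, the call of Plxna4 in proliferating cells depending on single libraries. Ntn1, Ntn4 and Sema4b were higher in null cells in both conditions. Of the 66 genes, 8 were called higher and 25 lower in null proliferating cells, which is 12.1% and 37.9% of them. Among all genes tested, 19% were called higher and 19.7% lower, or 38.6% in either direction. In differentiating cells 12 guidance genes were called higher and 39 lower (18.2% and 59.1%), against 24.3% higher and 22% lower among all genes tested, or 46.4% in either direction. The 39 include Slit3 and Sema3e, which met the count condition only with the intact differentiating libraries. The median log2 fold change of the guidance genes, null against intact, was -0.29 in proliferating and -1.05 in differentiating cells, and that of all genes was -0.01 and 0.04. A gene was called where edgeR's quasi-likelihood test, fitted over all genes with Benjamini-Hochberg adjustment, gave an adjusted p under 0.05. RNA from whole cultures cannot tell fewer cells of a type from less RNA per cell.

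The 2 genotype comparisons use separate libraries but come from 1 fit with a shared estimate of the spread. The labels do not say whether proliferating and differentiating libraries came from the same foetuses. Called lower in both conditions were 18 genes, and 3 were called higher in both. Sema6a and Ntng2 were higher in null proliferating and lower in null differentiating cells, and Efna4, Ephb3 and Plxnb1 were lower in the former and higher in the latter. No call in either was made for 8 genes: Epha10, Nrp1, Plxna1, Plxna2, Sema4a, Sema5b, Sema6d and Unc5a. The same joint counts over all genes tested are not given here, so these joint counts have no background beside them. All 4 null libraries lay above all 4 intact ones for 9 guidance genes and below them for 26 in proliferating cells, against 19.2% and 19.7% of all genes. In differentiating cells these numbers were 9 and 33, against 24.9% and 20.4% of all genes. Without intact proliferating replicate 4, 5 guidance genes were called higher in null proliferating cells, as were 2480 of the 15539 genes then tested. Without the intact libraries numbered 1, the calls were 12 higher and 26 lower in proliferating and 12 higher and 38 lower in differentiating cells, with 48.2% and 49.6% of all genes then called.

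**Figure D1:**
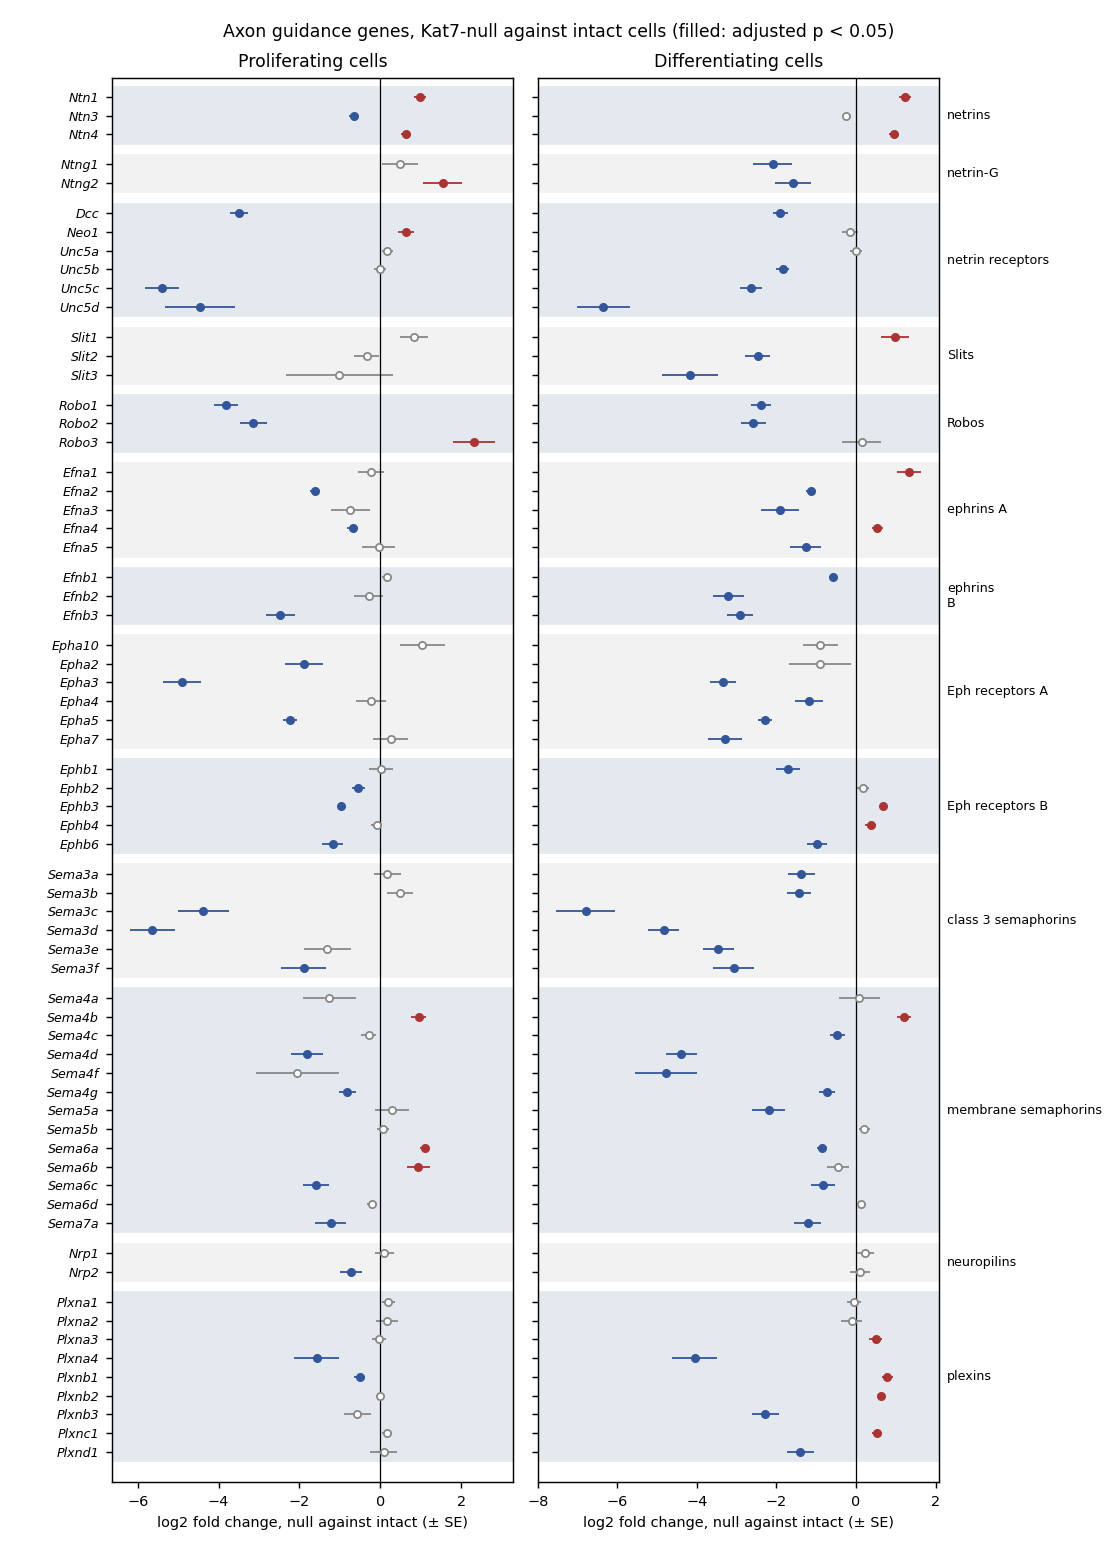
Log2 fold change, null against intact, of the 66 guidance genes in proliferating (left) and differentiating cells (right), grouped by family. Points are fitted values with standard errors (SE) from 4 libraries a group, filled red for called higher and blue for called lower, and open grey for no call. Sema3d (-5.64) is the lowest at left and Sema3c (-6.80) at right, and Ntn1 and Ntn4 lie to the right of 0 in both panels.

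Some markers of cell types differed with genotype as well. Among all genes tested, 24.3% were called higher and 22% lower in null differentiating cells, and 19% and 19.7% in null proliferating cells. The lists are short, and the smaller counts below are not far from these shares. Of 10 oligodendrocyte lineage markers, 7 were called lower in null cells in each condition and none higher, and their summed level was 3910 to 8180 CPM in intact and 2050 to 2680 CPM in null differentiating libraries. Of 10 neuronal markers, 6 were lower and 1 higher in null differentiating cells, with summed levels of 2260 to 6360 CPM in intact and 2370 to 2780 CPM in null libraries. Of 8 astrocyte markers, 5 were higher and none lower in null differentiating cells, at 3820 to 6070 CPM against 1490 to 2400 CPM. All 6 fibroblast markers, which share Pdgfra with the oligodendrocyte list, were lower in null differentiating cells, at 252 to 406 CPM against 575 to 645 CPM. Of 8 neural stem cell markers, 6 were higher and none lower in null differentiating cells, at 4190 to 5290 CPM against 2690 to 3630 CPM. Of 4 mural markers tested, 2 were higher there, and the list summed to 251 to 344 CPM in null and 109 to 168 CPM in intact libraries. In proliferating cells 4 fibroblast markers were lower in null cells, at 35.1 to 42 CPM against 79.8 to 286 CPM. There, 3 neuronal markers were lower and 3 astrocyte and 3 of 4 ependymal markers were higher in null cells. Of the 8 neural stem cell markers, 1 was higher and 2 were lower in null proliferating cells. Endothelial markers summed to at most 4.76 CPM and microglial markers to at most 0.699 CPM in any library, with Cdh5, Tie1, Cldn5 and Aif1 at or near 0. The part of these cell types in the guidance gene differences was not tested.

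Among the netrins, the secreted cues of this system, Ntn1 and Ntn4 were higher in null cells in both conditions. Ntn1, the classical attractant of commissural axons, stood at 90.9, 124, 123 and 116 CPM in intact and 198, 229, 247 and 220 CPM in null proliferating libraries. In differentiating cells it stood at 39.9, 65.7, 50 and 74.8 CPM in intact and 136, 129, 138 and 138 CPM in null libraries. Every null library lay above every intact library of its condition, and the log2 fold changes were 0.98 ± 0.15 (SE; edgeR adjusted p = 0.00018) and 1.23 ± 0.16 (edgeR adjusted p = 1.8e-05). Ntn4, a netrin related to laminin chains, had the highest level per length of the family in proliferating cells. It measured 49, 66.2, 65.5 and 70 CPM in intact and 82, 99.6, 88 and 119 CPM in null proliferating libraries, and 9.33, 10.1, 12.4 and 10.2 against 19.4, 21.3, 21.3 and 19.7 CPM in differentiating ones. The groups did not overlap in either condition, with log2 fold changes of 0.63 ± 0.12 (edgeR adjusted p = 0.0011) and 0.96 ± 0.13 (edgeR adjusted p = 3.2e-05). Ntn3 was lower in null proliferating cells (log2 fold change -0.66 ± 0.11), and its difference in differentiating cells (-0.25 ± 0.11) did not pass the test.

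Of the 6 netrin receptors, 1 was called higher and 3 lower in null proliferating cells, and none higher and 4 lower in null differentiating cells. Among all genes tested, 19% were called higher and 19.7% lower in the former, and 24.3% and 22% in the latter. Dcc, which mediates attraction to netrin, stood at 50, 36.4, 37.4 and 38.2 CPM in intact and 5.02, 2.77, 4.04 and 2.49 CPM in null proliferating libraries. After differentiation it stood at 127, 159, 197 and 173 CPM in intact and 37.5, 45.4, 54.9 and 38.2 CPM in null libraries. All null libraries lay below all intact ones in both conditions, and the null differentiating libraries reached the intact proliferating level. The log2 fold changes were -3.49 ± 0.22 (edgeR adjusted p = 5e-08) and -1.90 ± 0.19 (edgeR adjusted p = 2.4e-06). Unc5c, a receptor for netrin repulsion, measured 7.95, 3.9, 4.14 and 2.84 CPM in intact proliferating libraries and 0.0698, 0.247, 0.0832 and 0.085 CPM, from 11 counts in all, in null ones. In differentiating cells it measured 66.7, 43.9, 37.2 and 40.1 CPM in intact and 7.64, 7.63, 8.2 and 6.76 CPM in null libraries. The groups were far apart in both conditions, with log2 fold changes of -5.40 ± 0.43 (edgeR adjusted p = 4.5e-07) and -2.64 ± 0.27 (edgeR adjusted p = 2.8e-06).

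Unc5d, a further Unc5 receptor, had 7 counts over the null proliferating and 36 over the null differentiating libraries. It stood at 42.1, 17, 15.5 and 6.2 CPM in intact differentiating libraries and at 0.0697, 0.276, 0.405 and 0.174 CPM in null ones. The intact libraries spread widely, yet the lowest of them lay above the highest null library. Its log2 fold change was -6.35 ± 0.67 (edgeR adjusted p = 3.6e-06), and -5.70 without the intact libraries numbered 1. In proliferating cells it was -4.46 ± 0.86 (edgeR adjusted p = 0.00077), and -3.83 without them. Unc5b differed between genotypes in differentiating cells, where intact libraries held 14.1, 13.6, 20.1 and 14.9 CPM and null libraries 5.41, 4.01, 3.3 and 4.81 CPM. Those groups did not overlap (log2 fold change -1.84 ± 0.16, edgeR adjusted p = 5.9e-07), and in proliferating cells both means were 19.5 CPM. Neo1, a netrin and RGM receptor and the most abundant of the family per length, was higher in null proliferating cells (log2 fold change 0.64 ± 0.20) and had no call in differentiating cells (-0.15 ± 0.20). That rise was no longer called without intact proliferating replicate 2, 3 or 4. Unc5a had no call in either condition, with means of 18.5 to 25.3 CPM in the 4 groups.

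To set the netrin system's lowered receptor and raised ligand side by side at the sequence level, the 250 bases before the RefSeq start (GRCm38.p6) of Unc5c (chr3:141465314-141465563, plus strand) and Ntn4 (chr10:93640799-93641048, plus strand) are given here, with each CG dinucleotide in capitals.
Unc5c: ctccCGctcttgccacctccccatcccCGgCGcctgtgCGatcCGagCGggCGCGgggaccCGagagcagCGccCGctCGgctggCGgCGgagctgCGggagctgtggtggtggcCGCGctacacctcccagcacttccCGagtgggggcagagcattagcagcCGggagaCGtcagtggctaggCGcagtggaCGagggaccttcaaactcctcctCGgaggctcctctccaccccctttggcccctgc
Ntn4: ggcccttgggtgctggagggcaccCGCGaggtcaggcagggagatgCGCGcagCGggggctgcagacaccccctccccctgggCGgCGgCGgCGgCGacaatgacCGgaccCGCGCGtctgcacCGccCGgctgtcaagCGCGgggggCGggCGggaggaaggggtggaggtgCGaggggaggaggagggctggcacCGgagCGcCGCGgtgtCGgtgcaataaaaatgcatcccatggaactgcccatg
Both windows are rich in CG, with 23 in Unc5c and 26 in Ntn4.

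The netrin-Gs are anchored to the membrane and bind Lrrc4 family proteins in place of Dcc. Ntng2 stood at 5.38, 2.81, 2.03 and 2.07 CPM in intact and 8.44, 7.21, 8.9 and 11.1 CPM in null proliferating libraries. In differentiating cells the intact libraries held 83.8, 25.9, 22.7 and 12.1 CPM and the null libraries 10.5, 12.5, 12.4 and 12.4 CPM. Null libraries were all higher in the first condition, and intact libraries were mostly higher in the second, where the lowest of them lay among the null values. The log2 fold changes were 1.54 ± 0.49 (edgeR adjusted p = 0.02) and -1.59 ± 0.45 (edgeR adjusted p = 0.0094). The first was not called without intact proliferating replicate 3 or 4 or null proliferating replicate 4, and the second was -0.76 without intact differentiating replicate 1, which still passed the test. Of the exonic bases of Ntng2, 14.0% overlap those of 6530402F18Rik on the same strand. Ntng1 was lower in null differentiating cells (log2 fold change -2.09 ± 0.49), with means of 1.19 CPM in null and 5.14 CPM in intact libraries.

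**Figure D2:**
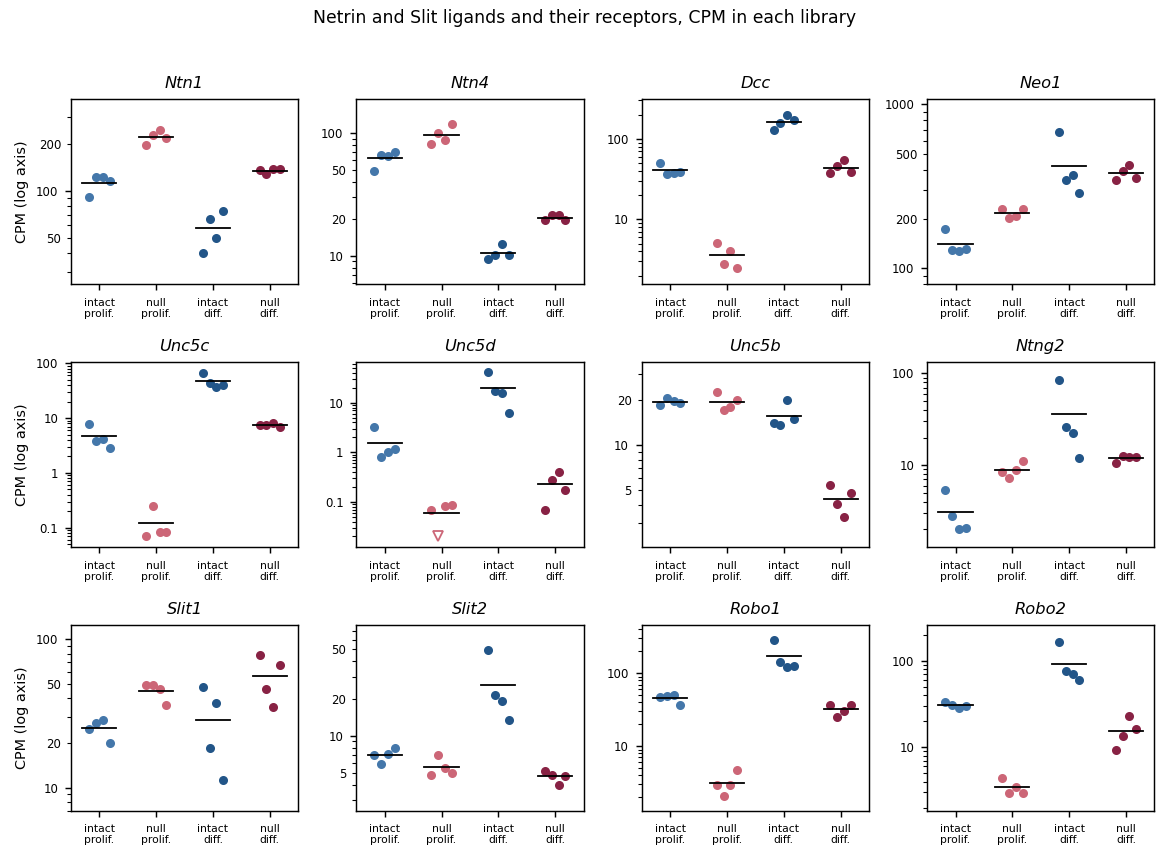
CPM (log axis) of 12 netrin and Slit system genes in each of the 16 libraries, by group, with the group mean as a line and a library with 0 counts as an open triangle at 0.02 CPM. Dcc, Unc5c, Robo1 and Robo2 are lower in null than in intact cells in both conditions without overlap, and Ntn1 and Ntn4 are higher.

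In the Slit system the receptors Robo1 and Robo2 were lower in null cells in both conditions, and the repellent ligands had genotype calls in differentiating and none in proliferating cells. Robo1 stood at 46.9, 48.1, 50.6 and 37.2 CPM in intact and 2.93, 2.1, 2.91 and 4.68 CPM in null proliferating libraries, and at 288, 142, 123 and 126 against 36.2, 25.3, 30.8 and 37 CPM in differentiating ones. The groups did not overlap, and intact differentiating replicate 1 was well above its group. The log2 fold changes were -3.81 ± 0.30 (edgeR adjusted p = 4.4e-07) and -2.39 ± 0.26 (edgeR adjusted p = 5.8e-06). Robo2 measured 33.4, 30.6, 28.6 and 29.8 CPM in intact and 4.4, 2.96, 3.45 and 2.98 CPM in null proliferating libraries, and 164, 76.2, 70.6 and 60.5 against 9.21, 13.6, 22.9 and 16.1 CPM in differentiating ones. Again no null library reached an intact one (log2 fold changes -3.14 ± 0.33 and -2.58 ± 0.31). Robo3, a divergent Robo of hindbrain commissural neurons, went against its relatives at a low level: 0.0969, 0.379, 0.461 and 0.54 CPM in intact and 1.57, 1.29, 1.37 and 3.18 CPM in null proliferating libraries. It was higher in every null library there (log2 fold change 2.32 ± 0.52, edgeR adjusted p = 0.0024), and it had no call in differentiating cells (0.14 ± 0.49).

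Slit2 stood at 49.5, 21.5, 19.1 and 13.4 CPM in intact and 5.2, 4.78, 3.96 and 4.75 CPM in null differentiating libraries. The groups did not overlap (log2 fold change -2.47 ± 0.31, edgeR adjusted p = 1.7e-05), whereas in proliferating cells the means of 7.02 and 5.57 CPM were not called apart. Slit3 had 276 counts in the intact and 17 in the null differentiating libraries (log2 fold change -4.18 ± 0.71, and -5.06 without null differentiating replicate 4), and 7 and 4 counts in proliferating cells, too few for a comparison. It met the count condition only with the intact differentiating libraries, so its difference in differentiating cells was in part set by the choice of genes. Slit1, the most abundant Slit per length, measured 47.8, 18.4, 37.4 and 11.2 CPM in intact and 78.4, 46, 34.8 and 66.8 CPM in null differentiating libraries. These ranges overlapped, and the call (log2 fold change 0.98 ± 0.35, edgeR adjusted p = 0.033) was lost without intact differentiating replicate 2 or 4 or null differentiating replicate 1 or 4. In proliferating cells every null library of Slit1 was above every intact one (means 45.1 and 25.2 CPM), without passing the test (edgeR adjusted p = 0.074).

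The B ephrins, transmembrane ligands, were lower in null differentiating cells in all 3 cases, where 22% of all genes tested were called lower. Efnb2 stood at 252, 85.7, 99.8 and 51 CPM in intact and 11.8, 13.1, 14.7 and 13.3 CPM in null differentiating libraries. Intact replicate 1 was far above its group, and even the lowest intact library exceeded every null one. The log2 fold change was -3.21 ± 0.39 (edgeR adjusted p = 1.2e-05), and -2.57 without the intact libraries numbered 1. Efnb3, the B ephrin with the highest level per length in intact differentiating cells, measured 14.8, 9.36, 9.67 and 9.77 CPM in intact and 1.88, 2.84, 2.12 and 1.3 CPM in null proliferating libraries, and 181, 71.3, 90.8 and 49.7 against 12.6, 12.1, 14.9 and 12.5 CPM in differentiating ones. It was lower in all null libraries of both conditions (log2 fold changes -2.47 ± 0.36 and -2.92 ± 0.33). Efnb1 had a smaller difference in differentiating cells (log2 fold change -0.58 ± 0.11; means 47.4 CPM in null and 70.7 CPM in intact).

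The A ephrins, held by a lipid anchor, were split. Efna2, the leading one per length in intact cells, was steady within groups, at 23.2, 23, 25.2 and 23.7 CPM in intact and 7.12, 9.74, 8.45 and 6.04 CPM in null proliferating libraries. In differentiating libraries it held 23.8, 22, 23.5 and 22.8 CPM in intact and 11.2, 12, 9.54 and 9.36 CPM in null cells. Null libraries were all lower, by log2 fold changes of -1.61 ± 0.13 (edgeR adjusted p = 5.4e-07) and -1.13 ± 0.13 (edgeR adjusted p = 6.4e-06). Efna4 was lower in null proliferating (log2 fold change -0.68 ± 0.14) and higher in null differentiating cells (0.53 ± 0.14), with no overlap in either. Efna1 was higher in null differentiating cells (1.33 ± 0.30), from a mean of 1.09 CPM in intact to 2.74 CPM in null libraries. Efna3 and Efna5 were lower there, with log2 fold changes of -1.92 ± 0.48 and -1.26 ± 0.39. The groups of Efna3 overlapped, with intact libraries at 20.6, 5.51, 8.47 and 2.79 CPM. Without intact differentiating replicate 1 its value was -1.17, still called, and that of Efna5 was -0.91 and not called. Exonic bases of Efna3 and Efna4 overlap an antisense gene by 14.1% and 10.5%.

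Among the Eph receptors, receptor tyrosine kinases whose A class binds mainly A ephrins, Epha3 and Epha5 were lower in null cells in both conditions. Epha3 stood at 6.35, 2.98, 2.35 and 2.39 CPM in intact proliferating libraries, and the null ones held 0.105, 0, 0.125 and 0.17 CPM, from 12 counts in all. In differentiating cells it measured 53.5, 34.8, 30 and 33 CPM in intact and 3.28, 3.16, 4.26 and 4.09 CPM in null libraries. No null library came near an intact one, and the log2 fold changes were -4.90 ± 0.47 (edgeR adjusted p = 2.3e-06) and -3.35 ± 0.32 (edgeR adjusted p = 1.3e-06). Epha5 measured 102, 89.9, 90.2 and 97.3 CPM in intact and 17.9, 18.5, 19.7 and 24.2 CPM in null proliferating libraries, and 211, 133, 144 and 109 against 35.7, 31.7, 27.1 and 27.1 CPM in differentiating ones. Every null library was lower, with log2 fold changes of -2.24 ± 0.17 and -2.29 ± 0.17. Epha7 differed after differentiation, with 71.2, 23.1, 21.1 and 13.3 CPM in intact and 2.51, 4.04, 3.45 and 3.16 CPM in null libraries. These did not overlap (log2 fold change -3.29 ± 0.43, and -2.54 without the intact libraries numbered 1), and in proliferating cells the value was 0.26 ± 0.43, with no call. Epha4, which binds ephrins of both classes, was lower in null differentiating cells (log2 fold change -1.19 ± 0.35), where the means were 53.4 CPM in null and 122 CPM in intact. Epha2 was lower in null proliferating cells (log2 fold change -1.90 ± 0.47) with overlapping groups, and it had 21 counts over the intact and 13 over the null differentiating libraries.

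The B receptors were mixed. Ephb3 stood at 56.7, 56.8, 51.3 and 55 CPM in intact and 28.4, 29, 29.4 and 25.7 CPM in null proliferating libraries. In differentiating cells the order was turned, with 36.5, 43.2, 36.1 and 42.9 CPM in intact and 66.1, 57.3, 60.9 and 71.4 CPM in null libraries. The groups did not overlap in either condition, and the log2 fold changes were -0.97 ± 0.08 (edgeR adjusted p = 9.8e-07) and 0.69 ± 0.08 (edgeR adjusted p = 1.2e-05). Ephb1 was lower in null differentiating cells, at 37.7, 26, 27.9 and 37.3 CPM against 103, 97.8, 108 and 113 CPM in intact ones (log2 fold change -1.71 ± 0.29). Ephb6, which lacks kinase activity, was lower in both conditions (-1.18 ± 0.26 and -0.98 ± 0.25). Ephb2 was lower in null proliferating cells (-0.54 ± 0.16) and had no call in differentiating cells (0.17 ± 0.15). The call of Ephb4 in differentiating cells (log2 fold change 0.37 ± 0.14, edgeR adjusted p = 0.038) was lost under 11 of the alternatives, DESeq2 among them.

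**Figure D3:**
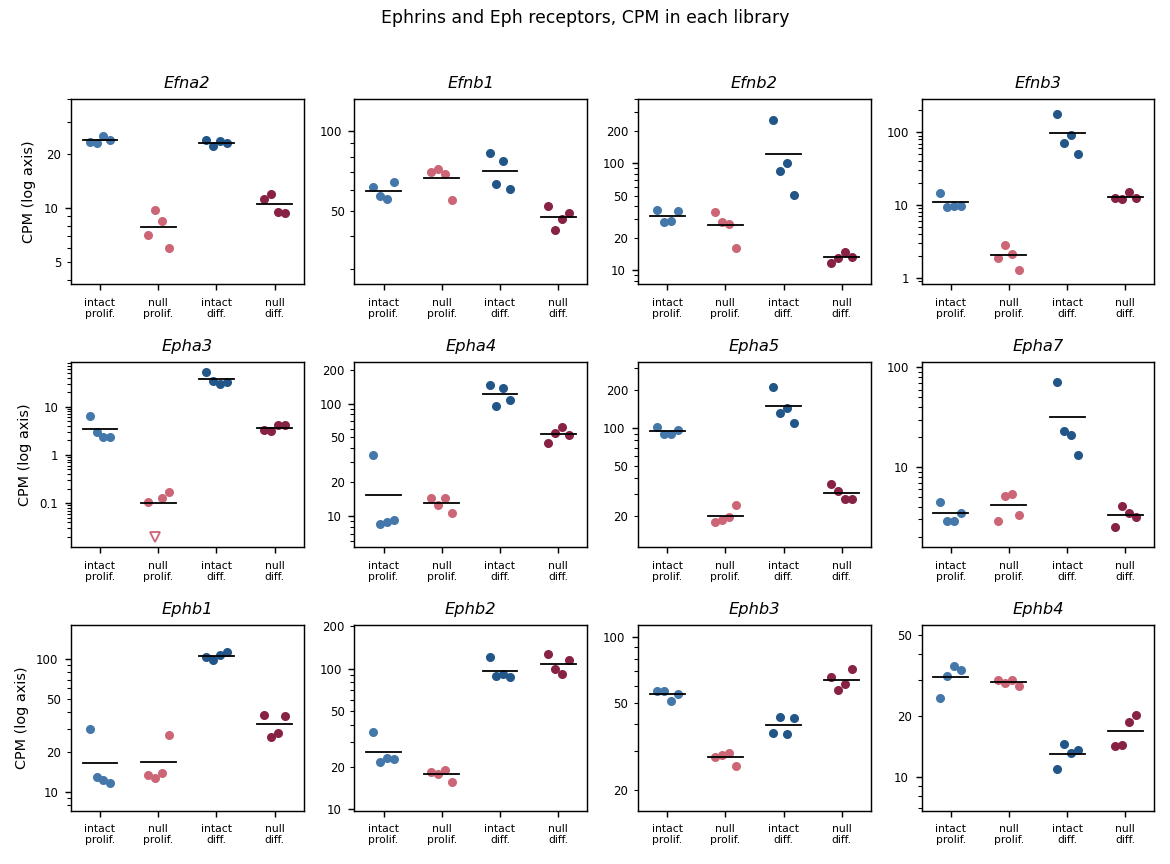
CPM (log axis) of 12 ephrins and Eph receptors in each of the 16 libraries, by group, with the group mean as a line and a library with 0 counts as an open triangle at 0.02 CPM. Epha3, Epha5, Efna2 and Efnb3 are lower in null cells in both conditions, and Ephb3 changes order between conditions.

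Class 3 semaphorins are secreted and mostly repel axons. All 6 measured members were called lower in null differentiating cells, and 3 of them (Sema3c, Sema3d and Sema3f) in null proliferating cells as well. Of all genes tested, 22% and 19.7% were called lower in these conditions. Sema3c measured 4.8, 10.4, 11.7 and 12.6 CPM in intact and 0.419, 0.555, 0.541 and 0.397 CPM in null proliferating libraries. In differentiating cells the intact libraries held 22, 7.33, 7.34 and 2.34 CPM, and the null ones 0.139, 0.0613, 0.128 and 0 CPM, from 12 counts in all. The groups were separate in both conditions, although the intact differentiating libraries spread widely. The log2 fold changes were -4.38 ± 0.63 (edgeR adjusted p = 7.6e-05) and -6.80 ± 0.75 (edgeR adjusted p = 5.1e-06), the latter -6.01 without the intact libraries numbered 1. Sema3d stood at 2.57, 1.89, 2.35 and 1.58 CPM in intact proliferating libraries and had 4 counts over the null ones, where it was listed at 0 in replicates 1 and 2. In differentiating cells it measured 7.99, 11, 11.2 and 13.1 CPM in intact and 0.593, 0.214, 0.49 and 0.203 CPM in null libraries. It was lower in every null library (log2 fold changes -5.64 ± 0.55 and -4.83 ± 0.39, edgeR adjusted p = 2.1e-06 and 2.9e-07). The value in proliferating cells was -6.78 without null proliferating replicate 4, and fitted values resting on so few null counts depend on the prior count.

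The windows upstream of Sema3c (chr5:17574566-17574815, plus strand) and Sema3d (chr5:12382916-12383165, plus strand), taken and marked as for the netrin system, are shown because these genes, both on chromosome 5, had the lowest fitted values of the 66 in differentiating and proliferating cells, Sema3c in the former and Sema3d in the latter, and their windows differ in base composition.
Sema3c: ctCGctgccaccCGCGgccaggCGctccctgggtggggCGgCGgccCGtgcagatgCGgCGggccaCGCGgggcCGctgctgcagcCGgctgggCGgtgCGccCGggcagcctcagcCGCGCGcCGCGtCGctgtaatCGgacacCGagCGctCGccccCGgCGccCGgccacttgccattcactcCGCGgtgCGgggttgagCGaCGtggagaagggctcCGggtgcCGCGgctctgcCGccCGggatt
Sema3d: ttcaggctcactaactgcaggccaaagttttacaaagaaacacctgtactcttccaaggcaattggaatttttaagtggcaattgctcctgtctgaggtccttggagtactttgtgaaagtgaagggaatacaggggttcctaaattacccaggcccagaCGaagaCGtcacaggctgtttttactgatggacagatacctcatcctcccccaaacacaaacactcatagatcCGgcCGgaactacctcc
Sema3c has 39 CG in its window and Sema3d has 4. Of the 66 genes, 56 had a RefSeq promoter in the table used, and the median number of CG in 250 bases was 16 for them, 15 for all genes tested and 6 for all promoters in the table. The E-box motifs CAGATG and CAGCTG, which do not overlap each other and were searched on both strands, were present in 16.7% of the members' promoters, 21.0% of those of the genes tested and 25.5% of all promoters. They stood in 22.5% of the 40 promoters of members called lower in null differentiating cells, 7.7% of the 13 of members called higher and 10.5% of the 19 of members with no call, as a description of these letters and not of binding.

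Sema3f, a neuropilin-2 ligand, was lower in null cells in both conditions (log2 fold changes -1.90 ± 0.55 and -3.08 ± 0.52, the latter -2.43 without the intact libraries numbered 1). Sema3e, which can bind Plxnd1 without a neuropilin, fell by 3.46 ± 0.40 in null differentiating cells, with means of 0.501 CPM in null and 5.7 CPM in intact libraries. It too met the count condition only with the intact differentiating libraries. Sema3a, the classical collapsing factor and the leading class 3 semaphorin per length, stood at 35.7, 14.6, 11.9 and 8.21 CPM in intact and 8.68, 5.85, 5.24 and 7.48 CPM in null differentiating libraries. The top null value lay above the lowest intact one, and the log2 fold change was -1.38 ± 0.34 (edgeR adjusted p = 0.0038), or -0.77 without intact differentiating replicate 1, still called. In proliferating cells Sema3a held means of 41.4 CPM in null and 36.7 CPM in intact libraries, with no call. Sema3b was lower in null differentiating cells (log2 fold change -1.43 ± 0.30) at under 3 CPM in every library.

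Of 13 membrane-bound semaphorins, 3 were called higher and 4 lower in null proliferating cells, and 1 higher and 8 lower in null differentiating cells. Among all genes tested, 19% were called higher and 19.7% lower in the former, and 24.3% and 22% in the latter. The counts in proliferating cells were not far from these shares. Sema4d, a ligand of Plxnb1, measured 8.87, 3.3, 3.32 and 2.79 CPM in intact and 0.768, 1.73, 1.21 and 1.56 CPM in null proliferating libraries. In differentiating cells it measured 62.1, 43, 59.7 and 46.7 CPM in intact and 2.16, 1.53, 3.79 and 2.49 CPM in null libraries. Null libraries were lower throughout, with log2 fold changes of -1.81 ± 0.39 (edgeR adjusted p = 0.0019) and -4.39 ± 0.38 (edgeR adjusted p = 5.9e-07). Sema5a, a ligand of Plxnb3, stood at 118, 149, 199 and 174 CPM in intact and 36.1, 35, 34.3 and 34.4 CPM in null differentiating libraries. The null libraries were almost level and all lower (log2 fold change -2.20 ± 0.41), and in proliferating cells there was no call (0.28 ± 0.42). Sema4f had 1341 counts in intact and 55 in null differentiating libraries (log2 fold change -4.78 ± 0.78, and -3.84 without the intact libraries numbered 1).

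Sema4b was the semaphorin that was higher in null cells in both conditions. It measured 54, 42.9, 45.4 and 42.4 CPM in intact and 94.2, 92.1, 85.9 and 83.9 CPM in null proliferating libraries, and 29.7, 17.1, 18.6 and 12.6 against 42.9, 43, 47.8 and 47.3 CPM in differentiating ones. There was no overlap (log2 fold changes 0.95 ± 0.18 and 1.21 ± 0.18). Sema6a, a ligand of A plexins, stood at 75.9, 58.1, 59.5 and 70.3 CPM in intact and 156, 132, 135 and 148 CPM in null proliferating libraries, all of the latter higher. In differentiating cells it stood at 156, 179, 231 and 217 CPM in intact and 94.2, 94.8, 124 and 118 CPM in null libraries, all of the latter lower. Its log2 fold changes were 1.11 ± 0.13 (edgeR adjusted p = 1.5e-05) and -0.86 ± 0.13 (edgeR adjusted p = 8.6e-05). Sema6b was higher in null proliferating cells (0.94 ± 0.29), a call lost without intact or null proliferating replicate 4. Sema4g, Sema6c and Sema7a were lower in both conditions, with log2 fold changes of -0.74 to -1.60. Without intact differentiating replicate 1, Sema6c was at -0.42 there and not called, and Sema7a at -0.63. Leaving out any null differentiating library also ended the call of Sema6c there, and leaving out null proliferating replicate 4 ended that of Sema7a in proliferating cells. Sema4c was lower in null differentiating cells by 0.47 ± 0.19, a call lost under all but a few of the omissions, with -0.18 without intact differentiating replicate 1. Sema6d, the leading semaphorin per length, had group means of 224 to 317 CPM and no genotype call, and Sema5b likewise had means of 122 to 143 CPM.

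Plexins are the signalling receptors of semaphorins. Of 9 measured, 4 were called higher and 3 lower in null differentiating cells. Among all genes tested, 24.3% were called higher and 22% lower there, so the plexins as a family showed no common direction. Plxna4, a co-receptor of Sema3a, measured 377, 107, 92.5 and 42.9 CPM in intact and 8.2, 6.8, 9.84 and 12.2 CPM in null differentiating libraries. The intact libraries spread widely with replicate 1 at the top, and all lay above the null ones. The log2 fold change was -4.06 ± 0.56 (edgeR adjusted p = 3.6e-05), and -3.12 without the intact libraries numbered 1, against -1.57 ± 0.56 in proliferating cells (edgeR adjusted p = 0.036), a call lost without intact proliferating replicate 2, 3 or 4 or null proliferating replicate 1, 2 or 3. Plxnb3, the receptor of Sema5a, stood at 207, 423, 462 and 532 CPM in intact and 73.9, 76, 96.6 and 88.8 CPM in null differentiating libraries. Here intact replicate 1 was the lowest of its group and still above every null library (log2 fold change -2.28 ± 0.34, edgeR adjusted p = 7.5e-05). Plxnd1 was also lower in null differentiating cells, by 1.40 ± 0.34, with overlapping groups and a value of -0.81 without both intact libraries numbered 1.

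Other plexins were higher in null differentiating cells. Plxnb1, the receptor of Sema4d, measured 285, 353, 333 and 376 CPM in intact and 568, 547, 591 and 624 CPM in null differentiating libraries. In proliferating cells it measured 279, 171, 170 and 168 CPM in intact and 136, 139, 138 and 141 CPM in null libraries. The groups were separate in both conditions and in opposite order, with log2 fold changes of 0.79 ± 0.14 (edgeR adjusted p = 3e-04) and -0.51 ± 0.14 (edgeR adjusted p = 0.0093). Intact proliferating replicate 1, at 279 CPM, stood well above its group. Without both intact libraries numbered 1 the difference between these log2 fold changes was 1.01, against 1.30 with all libraries. Plxnb2, a receptor of Sema4c that led the family per length in proliferating cells, stood at 246, 233, 267 and 241 CPM in intact and 390, 348, 362 and 415 CPM in null differentiating libraries. No intact library reached a null one (log2 fold change 0.62 ± 0.08, edgeR adjusted p = 2.2e-05), and the proliferating means were 469 CPM in intact and 462 CPM in null. Plxnc1, the receptor of Sema7a, was higher by 0.53 ± 0.12. Plxna3 was higher by 0.49 ± 0.17, a call lost without intact differentiating replicate 2, 3 or 4 or null differentiating replicate 1. The neuropilins showed a lower Nrp2 in null proliferating cells (log2 fold change -0.72 ± 0.27) and no other genotype call. The call of Nrp2 was lost without intact proliferating replicate 2 or 3, null proliferating replicate 1, 3 or 4 or null differentiating replicate 1 or 3. Nrp1 had means of 20 to 41.4 CPM in the 4 groups.

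**Figure D4:**
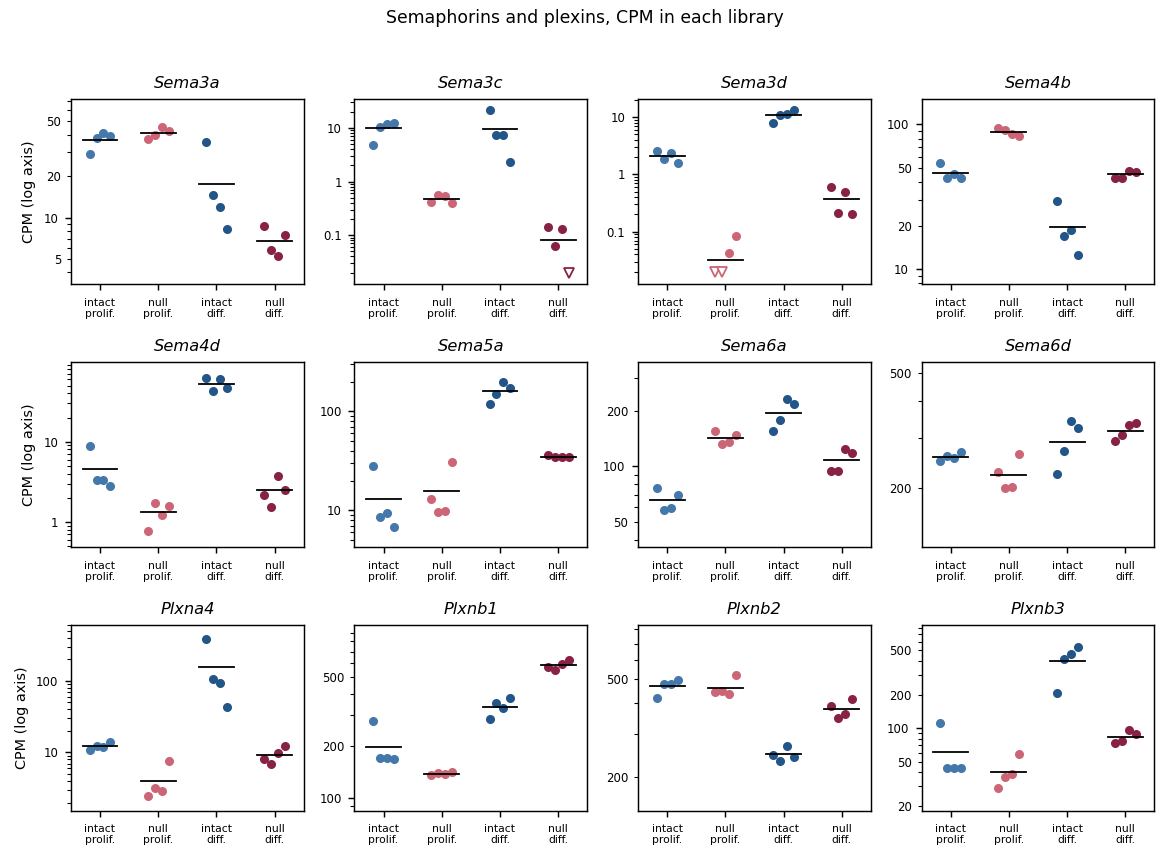
CPM (log axis) of 8 semaphorins and 4 plexins in each of the 16 libraries, by group, with the group mean as a line and a library with 0 counts as an open triangle at 0.02 CPM. Sema3c, Sema3d, Sema4d and Plxna4 are lower in null cells in both conditions, and Sema6a and Plxnb1 change order between conditions.

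Levels of different genes were compared as CPM per kilobase of gene model (RPKM). In intact proliferating cells the order was led by Plxnb2 at 71.5 ± 5.21 RPKM (SD, n = 4), Sema6d at 39.4 ± 1.17 and Sema5b at 26.8 ± 3.71, and the last of these did not differ beyond its spread from Ntn4 at 26.0 ± 3.88. In null proliferating cells Plxnb2 (70.5 ± 6.11 RPKM) was followed by Ntn4 (40.2 ± 6.67) and Ntn1 (38.9 ± 3.54), which did not differ beyond their spread. In intact differentiating cells Plxnb3 (67.4 ± 23.3 RPKM), Neo1 (57.0 ± 23.7) and Sema6d (44.4 ± 8.27) led, with spreads that overlap. In null differentiating cells the order was Plxnb1 (67.7 ± 3.85 RPKM), Plxnb2 (57.8 ± 4.57) and Neo1 (51.5 ± 4.85), and neither Neo1 and Plxnb2 nor Neo1 and Sema6d (48.4 ± 3.26) differed beyond their spread. At least 10 RPKM was reached by 16 guidance genes in intact and 13 in null proliferating cells, and by 31 in intact and 19 in null differentiating cells. The 66 genes summed to 476 to 525 RPKM in intact and 484 to 514 RPKM in null proliferating libraries, and to 729 to 1140 and 618 to 664 RPKM in differentiating ones. Summed by family, Robos stood at 34.1 ± 16.4 RPKM in intact and 6.33 ± 0.917 RPKM in null differentiating cells. Class 3 semaphorins stood there at 9.47 ± 4.92 and 1.53 ± 0.187 RPKM, and netrins at 17 ± 2.52 and 34.2 ± 0.585 RPKM. Summed plexins, at 253 ± 23.3 and 244 ± 11.7 RPKM, differed by less than the spread between libraries.

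Differentiation raised most of the guidance genes in intact cells. There, 44 genes were called higher and 9 lower in differentiating than in proliferating libraries (66.7% and 13.6%), against 36.7% and 35.3% of all genes tested, or 72% in either direction. The median log2 fold change was 1.58, and 0.02 over all genes. In null cells 35 were higher and 14 lower (53.0% and 21.2%), against 34.6% and 34.4% of all genes, or 69% in either direction, with a median of 0.70. In intact cells Plxna4 (log2 fold change 3.65 ± 0.55), Sema3e (4.28 ± 0.45), Sema4d (3.53 ± 0.37) and Sema5a (3.61 ± 0.44) were among the genes that rose, and Epha2 (-5.54 ± 0.60), Ntn4 (-2.58 ± 0.13), Ephb4 (-1.26 ± 0.14) and Sema4b (-1.24 ± 0.18) among those that fell. Sema3e and Slit3, both among the 44, met the count condition only with the intact differentiating libraries. Their rise was therefore in part set by the choice of genes. Without intact differentiating replicate 1 the rise of Plxna4 was 2.70, without intact proliferating replicate 1 that of Sema5a was 4.27, and without both intact libraries numbered 1 the change of Epha2 was -6.22. In null cells Unc5c (6.08 ± 0.42), Epha3 (4.98 ± 0.47), Sema4a (4.48 ± 0.64), Dcc (3.61 ± 0.22) and Robo1 (3.31 ± 0.30) rose, starting from the low proliferating levels given for them, and Ntng1 (-3.21 ± 0.50), Sema3a (-2.61 ± 0.35), Ntn4 (-2.25 ± 0.13) and Unc5b (-2.16 ± 0.16) fell. All 4 differentiating libraries lay above all proliferating ones for 41 and below them for 8 genes in intact cells, against 31.1% and 31.8% of all genes. In null cells these numbers were 34 and 15, against 33.8% and 33.2% of all genes.

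The difference between these responses was tested as an interaction. The null response was higher than the intact response for 9 guidance genes and lower for 19, or 13.6% and 28.8%, against 12.7% and 9.93% of all genes tested, or 22.7% in either direction. Without intact differentiating replicate 1 the count of higher responses was 16, and 2092 of the 15226 genes then tested were called higher. Without both intact libraries numbered 1 that count was 17, with 22 lower. Over all genes, 2488 higher and 2104 lower of 15252 were then called. Of the 35 ligands, 12 had a lower and 2 a higher response (34.3% and 5.71%). Of the 31 receptors, 7 had a lower and 7 a higher response (22.6% each). Both shares of lower responses lay above the 9.93% of all genes tested. Whether ligands and receptors differed in this was not tested. Efnb2 rose in intact (log2 fold change 1.91 ± 0.37) and fell in null cells (-1.0 ± 0.37), a difference of -2.92 ± 0.52 (edgeR adjusted p = 0.0012). The fall in null cells was not called without null proliferating or differentiating replicate 1. Sema6a likewise rose by 1.57 ± 0.13 in intact cells and changed by -0.41 ± 0.13 in null cells. Epha7, Ntng2 and Slit2 rose by 3.22, 3.56 and 1.88 in intact cells (2.47 for Epha7 and 2.72 for Ntng2 without intact differentiating replicate 1), and their changes in null cells, -0.33, 0.42 and -0.25, did not pass the test. Ephb3 and Efna4 went the opposite way, lower with differentiation in intact cells (-0.47 ± 0.08 and -0.73 ± 0.14) and higher in null cells (1.18 ± 0.08 and 0.48 ± 0.14). Unc5c, Dcc and Robo1 rose in both genotypes, and on the log2 scale by 2.77 ± 0.55, 1.59 ± 0.28 and 1.42 ± 0.38 more in null cells. The null rises started from low means of 0.121, 3.58 and 3.15 CPM and ended at 7.55, 44 and 32.3 CPM. Intact cells went from 4.71, 40.5 and 45.7 to 47, 164 and 170 CPM, a larger rise in CPM for each gene. The response of Plxna4 differed by -2.49 ± 0.75 (edgeR adjusted p = 0.027), a call lost without null proliferating replicate 4 or null differentiating replicate 1 or 2 and when replicate numbers were added as a block. Without intact differentiating replicate 1 the differences were -1.55 for Plxna4, -2.80 for Epha7, -2.30 for Ntng2 and -2.28 for Efnb2.

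**Figure D5:**
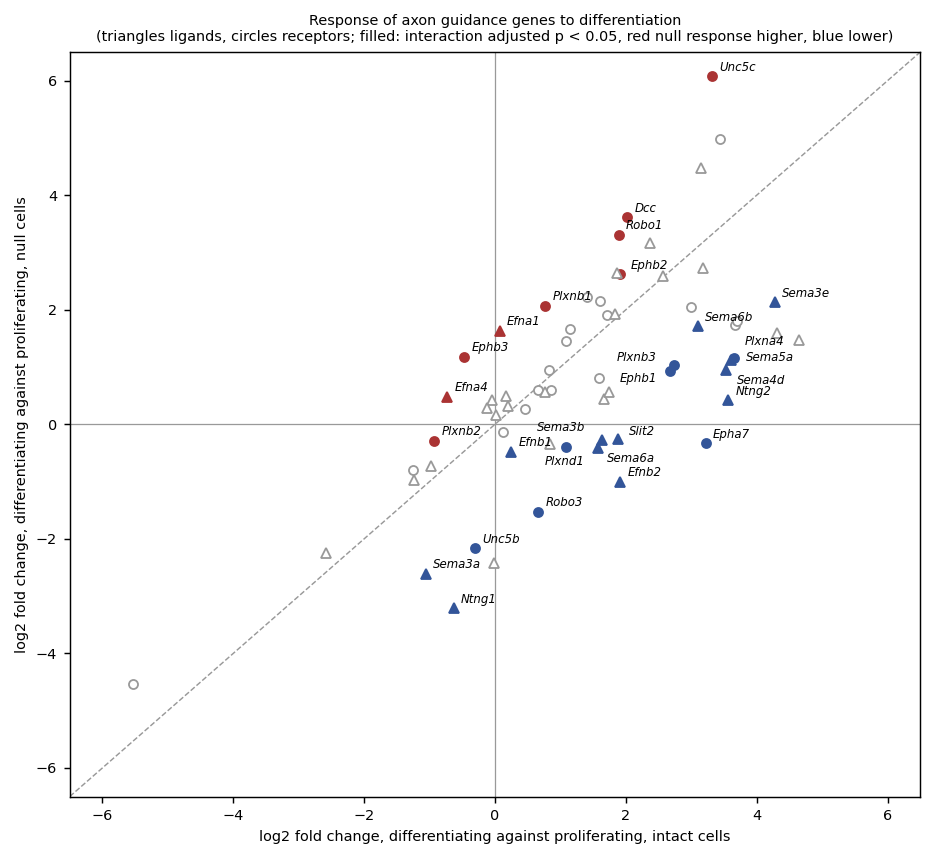
Log2 fold change of differentiating against proliferating cells, intact on the horizontal and null on the vertical axis, for the 66 genes; triangles are ligands and circles receptors, and the dashed line marks equal responses. Filled points have an interaction call, red where the null response was higher (Unc5c, 2.77) and blue where it was lower (Epha7, -3.55).

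Genes that act with these ligands and receptors were read from lists of intracellular signalling genes and of cofactors. Of 48 signalling genes, 7 were called higher and 14 lower in null proliferating cells (median log2 fold change 0.00), and 10 higher and 12 lower in null differentiating cells (median -0.10). These are 43.8% and 45.8% of the list, near the 38.6% and 46.4% of all genes tested that were called. Srgap1, a GTPase-activating protein downstream of Robo receptors, was lower in both conditions (-1.04 ± 0.20 and -1.37 ± 0.20), as was the kinase Pak1 (-1.55 ± 0.23 and -1.25 ± 0.22). Vav3, an exchange factor that acts in Eph signalling, was higher in both (0.76 ± 0.13 and 1.37 ± 0.13), as was Adam10, a protease that cleaves ephrins (0.44 ± 0.06 and 0.31 ± 0.06). Of 19 cofactors, 3 were higher and 8 lower in null proliferating cells, and 5 higher and 9 lower in null differentiating cells, or 57.9% and 73.7% of the list. Lrrc4c, the binding partner of Ntng1, fell by 3.18 ± 0.23 and by 3.00 ± 0.21. Flrt2, an Unc5 ligand, fell by 2.28 ± 0.22 and by 1.81 ± 0.21. L1cam, an adhesion molecule of growing axons, averaged 158 ± 177 CPM (SD, n = 4) in intact and 0.79 ± 0.14 CPM in null differentiating libraries (log2 fold change -7.62 ± 1.03). The intact values of L1cam spread over 418, 79.1, 113 and 21.1 CPM, all above the null ones.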

How the data were processed

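RNA-seq of 16 libraries, 4 in each of 4 groups, was analysed. The authors deposited raw counts per gene for each library, together with gene lengths, per the file headers. A table joining all libraries held identical values, as checked, and was not used. The tools bcl2fastq and featureCounts and the build mm10 are named in the submitters' processing notes. For the aligner, annotation and use of strand, the sources used here give nothing. Gene IDs were matched to RefSeq symbols (25275 of 27179). Total counts per library were 16784286 to 47890535, and the number of libraries limits the precision.

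Genes were filtered with filterByExpr (minimum count 10), which kept 15177, scaled by TMM and fitted with edgeR 4.0.16 (glmQLFit and glmQLFTest, R 4.3.3) over all 4 groups without covariates. Fold changes use edgeR's default prior count. A prior count of 2 was used for the log2 CPM behind the principal components and the correlations between libraries. The p-values were adjusted by the Benjamini-Hochberg method over all genes tested. DESeq2 1.42.0 was an alternative. The steps were tested on simulated data. RPKM was computed from the counts and the deposited gene lengths.

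The members and lists were chosen with earlier results of these data known. Named genes are the 12 highest and 12 lowest called in each genotype comparison provided that the higher group averaged 1 CPM or more, 6 of each in the other comparisons, the member of highest RPKM in each family, and up to 6 pathway genes of lowest adjusted p in each genotype comparison. Other members are named to account for their family. Exons of Efna3 (14.1%), Efna4 (10.5%) and Plxna1 (10.7%) overlap an antisense gene, and reads of the overlapping genes cannot be told apart where strand was not used.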

Additional observations from a re-analysis of the deposited data

Results flagged for a closer look

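In each group of 4 libraries, a library was singled out where its gap to the nearest other, over the group's range, passed Dixon's critical value for 4 samples. Of 184 groups, from 46 genes, 25 did so, and chance gives about 1 in 20. Intact proliferating replicate 1 stood above its group for 13 genes. These were Dcc (50 CPM), Efnb3 (14.8 CPM), Epha10 (0.727 CPM), Epha3 (6.35 CPM), Epha4 (34.8 CPM), Ephb2 (35.4 CPM), Neo1 (174 CPM), Plxna3 (91.9 CPM), Plxnb1 (279 CPM), Plxnc1 (55.8 CPM), Sema4a (5.72 CPM), Sema4d (8.87 CPM) and Unc5d (3.2 CPM). The same library stood below its group for Efna4 (11.5 CPM). Intact differentiating replicate 1 stood above for Epha7 (71.2 CPM), Ephb2 (120 CPM), Nrp1 (52.9 CPM), Robo1 (288 CPM) and Robo2 (164 CPM). Null proliferating replicate 4 stood above for Plxna4 (7.63 CPM), Plxnb2 (522 CPM) and Robo3 (3.18 CPM), and null proliferating replicate 2 for Unc5c (0.247 CPM). Null differentiating replicate 1 stood below for Ntng2 (10.5 CPM) and replicate 4 for Sema6b (26.2 CPM).

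The response to differentiation differed between genotypes, by the interaction term of the edgeR fit, for 28 of the 66 genes. The log2 differences, null minus intact response, were negative for 19. Among receptors they were -3.55 for Epha7, -1.73 for Ephb1, -2.19 for Robo3, -1.85 for Unc5b, -2.49 for Plxna4, -1.70 for Plxnb3 and -1.48 for Plxnd1. Among netrin-G, Slit and ephrin ligands they were -2.58 for Ntng1, -3.14 for Ntng2, -2.13 for Slit2, -0.73 for Efnb1 and -2.92 for Efnb2. Among semaphorins they were -1.55 for Sema3a, -1.93 for Sema3b, -2.15 for Sema3e, -2.58 for Sema4d, -2.48 for Sema5a, -1.97 for Sema6a and -1.39 for Sema6b. For 9 genes they were positive: 0.71 for Ephb2, 1.65 for Ephb3, 1.42 for Robo1, 1.56 for Efna1, 1.21 for Efna4, 1.59 for Dcc, 2.77 for Unc5c, 1.30 for Plxnb1 and 0.64 for Plxnb2. The difference of Sema3e was in part set by the choice of genes, because it met the count condition only with the intact differentiating libraries. The calls of Plxnd1, Robo3, Sema3e and Ephb2 were each lost without any one of several libraries, among them null differentiating replicate 1. That of Sema3a was lost without null differentiating replicate 2 or 3 or null proliferating replicate 3, and its difference was -0.94 without intact differentiating replicate 1. The difference was -3.15 for Sema5a without intact proliferating replicate 1 and -2.39 for Plxnb3 without both intact libraries numbered 1.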

How the results depend on the processing

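Of 254 recomputed counts of called guidance genes, 244 stayed within 1.5 times the reported count. Among 2018 recomputed values of named genes, 55 did not pass the test and 0 changed direction. A test against a minimum fold of 1.5 gave 3 higher and 16 lower in proliferating cells, 4 higher in differentiating cells, 23 higher and 8 lower in the null response, and 5 higher and 10 lower in the interaction. Of all genes, it called 10.8%, 17.4%, 33.9% and 5.05% in either direction in these comparisons. In differentiating cells it called 958 of all 15177 genes higher. The interaction gave 16 higher without intact differentiating replicate 1 and 17 without both intact replicates numbered 1. Over all genes, 2092 of 15226 and 2488 of 15252 were then called higher. Leaving out 1 library at a time gave 5 to 12 higher and 23 to 26 lower in proliferating cells, 10 to 12 and 36 to 39 in differentiating cells, 44 to 46 and 9 to 10 in the intact response, 32 to 38 and 13 to 14 in the null response, and 8 to 16 and 14 to 22 in the interaction. The share of all genes called in either direction moved as well. In the same order it ran from 32.3% to 44.5%, 40.8% to 49.9%, 67.2% to 73.6%, 64.3% to 72.2% and 18.3% to 26%. With the replicate block the guidance gene counts were 9 and 25, 12 and 39, 44 and 9, 35 and 14, and 10 and 18. Of all genes, 37.2%, 44.4%, 71.1%, 68.5% and 20.8% were then called. With isolate numbers as the block the responses gave 43 and 10, and 36 and 13, and the interaction 13 and 18. The shares of all genes were 69.8%, 67.8% and 19.3% there. Same-numbered intact libraries correlated at 0.126, 0.123, -0.231 and 0.117 between conditions, so the numbers were not taken to pair samples. Of 80 results for named genes, 61 kept their call under all alternatives. Scaling by library size alone called 2234 higher and 3847 lower over all genes in proliferating cells (2879 and 2985 with TMM) and 2677 and 4123 in differentiating cells (3691 and 3345 with TMM), with shifts of the median of -0.076 and -0.089. DESeq2 size factors gave 3116 and 3715 in differentiating cells. Genes with few null counts, such as Sema3d and Unc5d, are limited by depth.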
